A study of Mus musculus with 22 samples.

Results

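The mitochondrial genome encodes 13 proteins, and this report follows 9 of their mRNAs, mt-Nd1, mt-Nd2, mt-Nd4, mt-Nd5, mt-Cytb, mt-Co1, mt-Co2, mt-Co3 and mt-Atp6, while mouse epiblast stem cells (mEpiSCs) of the primed state were turned into naive cells. The members were chosen by gene symbol from a table of read counts on 34489 genes, and all 9 symbols were found. They were described as the percent of all counts of a library (library share) in 22 bulk RNA-seq libraries. The table listed 26 further mitochondrially encoded genes, namely the remaining 4 protein genes (mt-Nd3, mt-Nd4l, mt-Nd6 and mt-Atp8), 2 ribosomal RNAs and 20 transfer RNAs.

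The naive group was 1 library of Rex1-GFP embryonic stem cells (mESCs), whose GFP reports the activity of Rex1 (Zfp42), a naive marker gene. The primed group was 1 library of Oct4GIP mEpiSCs, a line labelled 129/Ola with an Oct4 reporter, and 1 library of 129/MSM mEpiSCs, a line from a 129X1/SvJ mother and an MSM/Ms father, so that its mitochondrial DNA is maternal 129X1/SvJ. Both lines were kept in FGF2 and Activin A before the reversion. Oct4GIP cells plated on mouse embryonic fibroblast (MEF) feeders were then sampled as whole cultures at day 8 (d8, 4 libraries) and day 16 (d16, 4 libraries) in Basal medium alone, in 2iL (leukemia inhibitory factor, LIF, plus a MEK and a GSK3 inhibitor), with AICAR, or with AICAR+LIF. AICAR is an activator of the AMP-activated protein kinase (AMPK), an energy sensor of the cell. Bulk cells from d16 were expanded in 2iL without sorting for the reporter. After 2 or 3 passages (d16+2-3p) this gave 4 Oct4GIP libraries of AICAR or AICAR+LIF cells, and after 10 passages (d16+10p) 5 Oct4GIP libraries (AICAR, AICAR+LIF, the AMPK activators A769662, A769662+LIF and metformin+LIF) and 2 libraries of 129/MSM cells (AICAR, AICAR+LIF). Every library was the only one of its line, treatment, day and passage. The libraries of a state therefore stood in as its samples, their spread includes differences between activators, passages and lines, and the naive library entered no test.

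Mitochondrial DNA is transcribed by a dedicated polymerase as long precursor RNAs of each strand, from which most mRNAs are released when the transfer RNAs between them are cut out, and the mRNAs then receive short poly(A) tails. The encoded proteins form the hydrophobic cores of the respiratory complexes, which pump protons across the inner membrane, and of ATP synthase, which uses the proton gradient. All other subunits come from nuclear genes. Primed pluripotent cells are known to rely strongly on glycolysis, whereas naive cells use both glycolysis and mitochondrial respiration.

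All 9 members lie on the plus strand of the mitochondrial chromosome (M) of GRCm38, in the order mt-Nd1 (2751 to 3707), mt-Nd2 (3914 to 4951), mt-Co1 (5328 to 6872), mt-Co2 (7013 to 7696), mt-Atp6 (7927 to 8607), mt-Co3 (8607 to 9390), mt-Nd4 (10167 to 11544), mt-Nd5 (11742 to 13565) and mt-Cytb (14145 to 15288). Each is a single exon without introns. The 5′ end of mt-Atp6 overlaps mt-Atp8, and that of mt-Nd4 overlaps mt-Nd4l, so that reads in the overlap could be counted on either gene. The annotated sequences of mt-Co3, mt-Nd4 and mt-Cytb end in a lone T, and the poly(A) tail is known to complete such a stop codon. As the libraries were made from poly(A) RNA, the last 15 bases of these 3 members are shown with those of mt-Co1, which ends in a full stop codon. The part of the stop codon held by the gene is in capitals.
mt-Co3: attgatgaggatctT
mt-Nd4: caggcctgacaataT
mt-Cytb: taaaattatatccaT
mt-Co1: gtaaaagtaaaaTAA

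Parts of the mitochondrial genome have near-identical copies in the nuclear genome, and 5 of these copies matched a member over at least 99% of the aligned bases. All 5 lie on the minus strand of chromosome 1 of GRCm38, between Gm28439 (24611535 to 24612410), which matched the first 876 bases of mt-Nd4, and Gm29216 (24615706 to 24616197), which matched positions 1063 to 1545 of mt-Co1 with the single difference A1066T (positions counted from the first base of mt-Co1, the mitochondrial base first). Between them lie Gm28437, Gm10925 and Gm28661, which matched 783 of 784 bases of mt-Co3, 678 of 681 bases of mt-Atp6 and 681 of 684 bases of mt-Co2 without a mismatch. More distant copies were Gm13340 on chromosome 2 (22588103 to 22589647), 97.6% identical to mt-Co1, and Gm13341 next to it, 95.9% identical to mt-Co2. A stretch of mt-Co1 of the length of 1 read, positions 1131 to 1209, is shown to make plain what a read can tell apart. The letters of Gm29216 are the same there, and Gm13340 has the 4 differences in capitals.
mt-Co1: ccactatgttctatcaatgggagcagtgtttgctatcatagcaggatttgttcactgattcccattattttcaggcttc
Gm29216: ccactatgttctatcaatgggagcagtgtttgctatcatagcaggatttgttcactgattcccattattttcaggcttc
Gm13340: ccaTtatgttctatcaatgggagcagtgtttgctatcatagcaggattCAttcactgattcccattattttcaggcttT

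A read of 79 bases from such a stretch fits the mitochondrial gene and its copy equally well. Of all possible 79-base windows of a member, 99.5% were identical in the copy of mt-Co2, 99.5% in that of mt-Atp6, 99.9% in that of mt-Co3, 61.4% in that of mt-Nd4 and 27.3% in the copy Gm29216 of mt-Co1. The counts were ordered roughly by these shares. Gm28661 held 49.6% of the joint count of itself and mt-Co2 (47.5% to 50.4% over the 22 libraries), Gm10925 held 49.4% of that with mt-Atp6 (48.3% to 51.5%) and Gm28437 held 49.4% of that with mt-Co3 (48.7% to 51.6%). Gm28439 held 29.3% of the joint count with mt-Nd4 (27.7% to 31.8%), and Gm29216 20.2% of that with mt-Co1 (18.4% to 22.2%). Relative to its 27.3% of identical windows, Gm29216 thus held more of the joint count than the other near-identical copies did. The more distant Gm13340 held 10.8% of the joint count with mt-Co1 and Gm13341 16.7% of that with mt-Co2. From identical bases, transcription of the copy and of the mitochondrial gene cannot be told apart, and the counts deposited for mt-Co2, mt-Atp6 and mt-Co3 are about as large as those deposited for their copies. For mt-Nd1 no nuclear copy was found among the reference transcripts, and for mt-Nd2, mt-Nd5 and mt-Cytb each copy listed held at most 4.13% of the joint count over all libraries and at most 5.06% in any library. The library shares below are those of the members as deposited. The levels per length include the 5 copies.

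**Figure D1:**
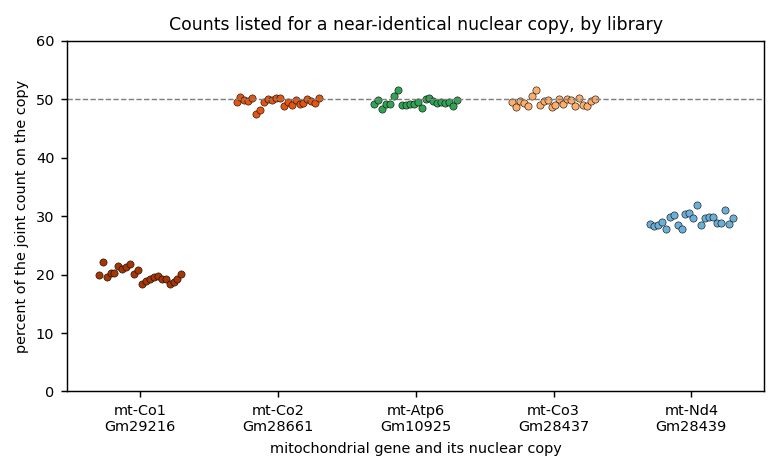
Percent of the joint count of a member and its near-identical nuclear copy that was listed for the copy (y axis), for 5 members (x axis) with 1 point per library and a dashed line at 50%. The points of mt-Co2, mt-Atp6 and mt-Co3 lie between 47.5% and 51.6% in all 22 libraries, those of mt-Nd4 between 27.7% and 31.8% and those of mt-Co1 between 18.4% and 22.2%.

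Library totals ranged from 438771 (AICAR+LIF d8) to 5290163 counts (Basal d16), and the 9 members together held 10249 to 152208 counts, with at least 732 for any member in any library. Counting error was therefore small against the differences between libraries, and for the naive library the exact 95% binomial interval of the summed share was 1.86% to 1.89%. Such intervals cover counting error only. The labels were checked against markers. The summed share of 6 naive markers was 0.333% in the naive library, 0.208% to 0.248% at d16+2-3p and 0.279% to 0.385% at d16+10p, against 0.00138% to 0.00780% in the primed, d8 and d16 libraries. In the d8 and d16 cultures Pou5f1, Sox2 and Nanog together held 0.0132% to 0.0316%, below the 0.0613% and 0.118% of the primed libraries. Pou5f1 was low there (0.705 to 41.0 CPM against a primed median of 677), whereas Sox2 was higher in the cultures (97.9 to 312 CPM) than in primed cells (56.0 and 61.9). The summed share of 6 primed markers was 0.0151% and 0.0987% in the primed libraries and at most 0.0130% in all others. The d8 and d16 cultures also held fibroblast transcripts, as described with those results.

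The 9 mRNAs together accounted for 1.30% to 2.93% of the counts of a library. Their summed share was 1.88% in naive mESCs, 2.04% in primed Oct4GIP cells and 1.66% in primed 129/MSM cells. At d8 it was 1.63% in Basal medium, 1.85% in 2iL, 1.87% with AICAR and 2.34% with AICAR+LIF (mean 1.92% ± 0.297, SD, n = 4). At d16 it was 2.88% in Basal medium, 2.93% in 2iL, 2.21% with AICAR and 2.55% with AICAR+LIF (2.64% ± 0.332, n = 4). After 2 passages it was 1.82% in AICAR and 1.81% in AICAR+LIF cells, and after 3 passages 1.83% and 2.27% (1.93% ± 0.226, n = 4). After 10 passages it ranged from 1.30% (A769662+LIF) over a median of 1.60% to 2.22% (AICAR, 129/MSM) (1.73% ± 0.356, n = 7). The naive value lay inside the range of every state except d16. The highest shares were those of d16, yet AICAR d16 (2.21%) lay below AICAR+LIF d8 (2.34%) below AICAR+LIF after 3 passages (2.27%) and just below AICAR 129/MSM after 10 passages (2.22%), so the sums of d16 overlapped those of d8, d16+2-3p and d16+10p. In bulk RNA, fewer cells rich in these mRNAs and less of them per cell cannot be told apart.

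**Figure D2:**
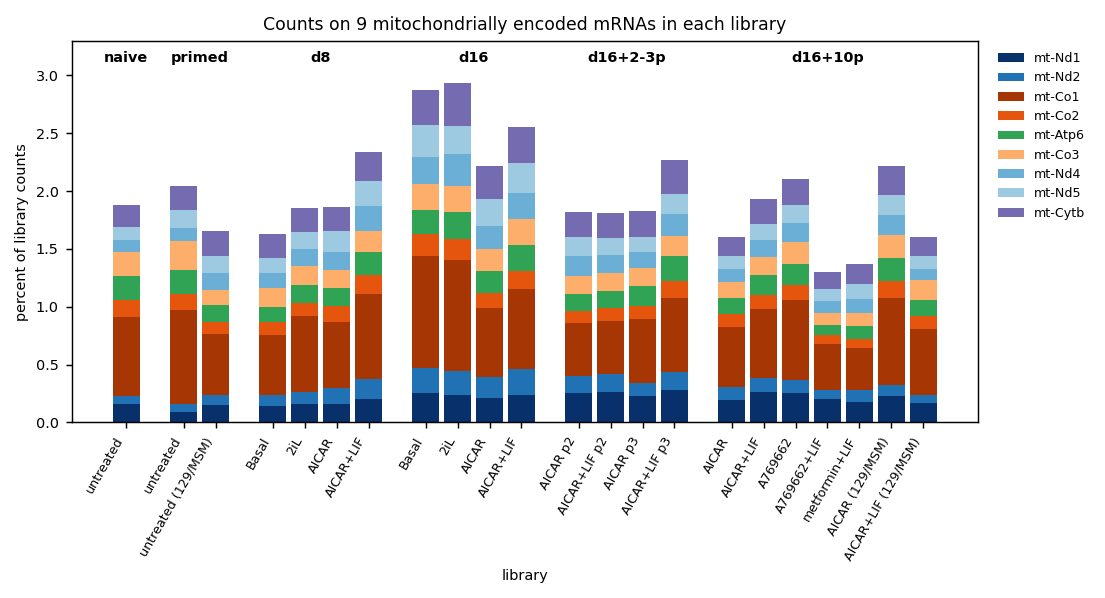
Stacked bars give the percent of library counts on each of the 9 mRNAs (y axis) for each of the 22 libraries (x axis, grouped by state), with colours for the genes in genome order. The bars of the 4 d16 libraries reach 2.21% to 2.93%, those of the 7 d16+10p libraries 1.30% to 2.22%, and mt-Co1 is the largest segment in each bar.

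Per length, the members fell into a higher and a lower group in all 22 libraries. Levels are given as counts per kb of gene, scaled to the library total as CPM, with the near-identical copy added. At d16 the median was 6806 for mt-Co1, the catalytic subunit of cytochrome c oxidase (complex IV), 6341 for mt-Atp6, the proton channel subunit of ATP synthase (complex V), 5504 for mt-Co3, a structural subunit of complex IV, and 4964 for mt-Co2, which takes up electrons from cytochrome c. The ranges of these 4 genes over the d16 libraries overlapped from each to the next. The lower group began with mt-Cytb, the cytochrome b of complex III (2663). It was followed by mt-Nd1 (2502), mt-Nd4 (2385), mt-Nd2 (2044) and mt-Nd5 (1387), which all encode subunits of the membrane arm of NADH dehydrogenase (complex I). In the lower group mt-Cytb, mt-Nd1, mt-Nd4 and mt-Nd2 overlapped from each to the next, and mt-Nd5 (1308 to 1533) lay below mt-Nd2 (1765 to 2104). In the 22 libraries mt-Co1 was first in 12 and mt-Atp6 in 10, mt-Co3 and mt-Co2 held places 2 to 4, and mt-Nd5 was last in 21. In the exception, primed Oct4GIP cells, mt-Nd2 was last (712, against 814 for mt-Nd5). The place of mt-Nd1 changed with the state. By median it was the seventh in primed cells, the sixth at d8 and d16, and the fifth in naive cells and at both passage stages.

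**Figure D3:**
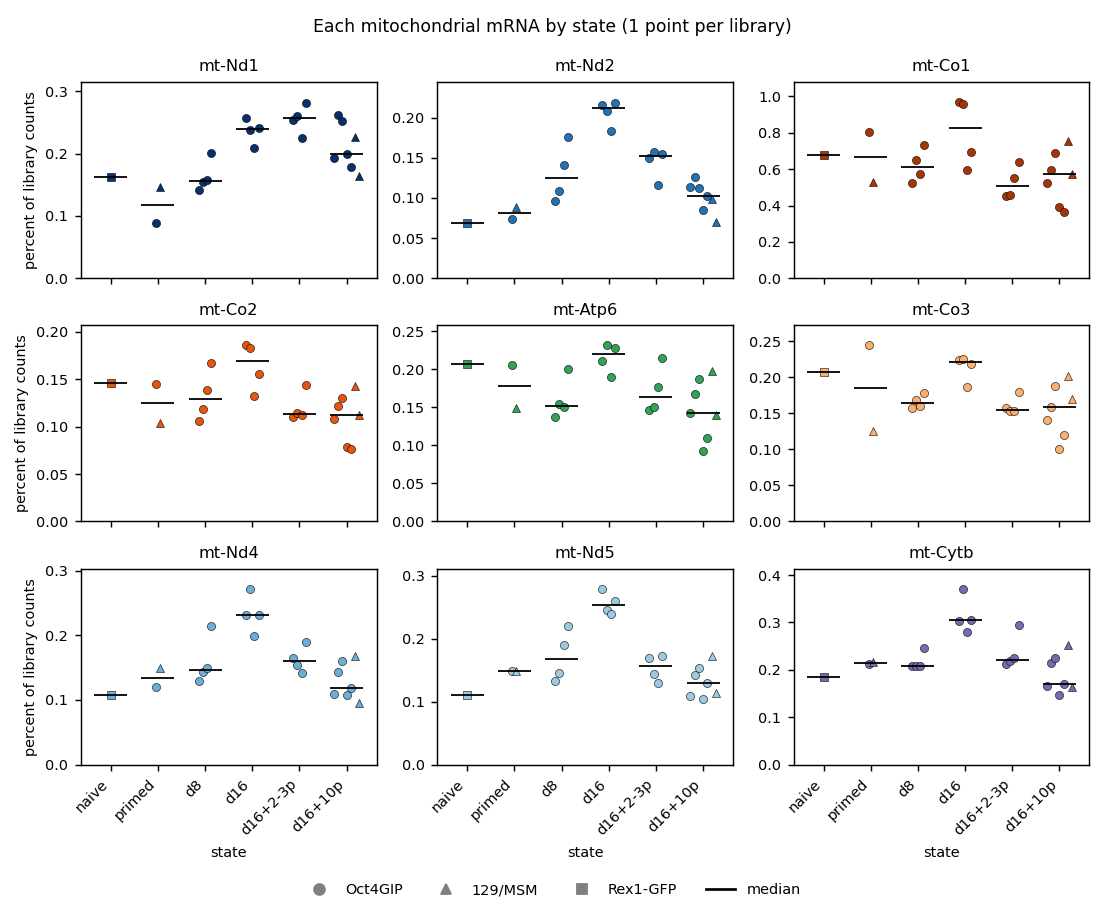
Each panel shows the percent of library counts of 1 mRNA (y axis, starting at 0) in the 6 states (x axis), with 1 point per library, symbols for the cell line and a bar at the median. The highest median lies at d16 in all panels except that of mt-Nd1, in which it lies at d16+2-3p.

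The first step, from primed cells to d8, was compared to ask how these mRNAs differed after the change from primed culture. Besides the withdrawal of FGF2 and Activin A, Oct4GIP cells went from serum-free medium on fibronectin to Basal medium with serum on MEF feeders. Of 10 fibroblast markers 5 were called higher at d8 and 0 lower. The part of each of these changes was not tested. Among the 9 members only mt-Nd2 passed the test. Its share was 0.0739% in Oct4GIP and 0.0882% in 129/MSM cells of the primed state, and 0.0958%, 0.108%, 0.141% and 0.175% at d8 in Basal medium, 2iL, AICAR and AICAR+LIF. All d8 libraries lay above both primed libraries, and both AICAR libraries lay above both libraries without it. The log2 fold change was 0.67 ± 0.22 (SE, adjusted p = 0.0296, edgeR quasi-likelihood test in a model of all 6 states, as in the next 4 comparisons). No d8 library of Basal medium or 2iL reached the level of those with AICAR, which were also the shallowest libraries of the study. The call was lost without both of them, without AICAR+LIF d8 alone, without either primed library, with no filter and with only the 2 groups in the fit, which makes 6 of 14 alternatives. Without primed 129/MSM cells, which leaves Oct4GIP cells on both sides, mt-Nd1 was called higher in place of mt-Nd2 (0.82 ± 0.26, adjusted p = 0.0248, against 0.74 ± 0.30, adjusted p = 0.0761, edgeR). The other 8 members had log2 fold changes from -0.15 to 0.47 and adjusted p-values of 0.0989 or more. Thus 1 of 9 members was higher and 0 lower, where 14% of all 18739 tested genes were higher and 13.7% lower, and the median was 0.08 for the members and 0.00 for all genes. As 0 members were called lower, the count at an unadjusted p below 0.05 in the same test is given as well. It was 2 of 9, both higher.

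At the same step the nuclear-encoded partners were lower where they passed the test. Of 36 nuclear genes of complex I, 12 were lower and 0 higher, with the largest changes in Ndufv3 (-1.46 ± 0.27) and Ndufs6 (-1.06 ± 0.20) on the log2 scale. In complex III 2 of 9 were lower, in complex IV 3 of 12 and in ATP synthase 4 of 17, among them Atp5b (-0.78 ± 0.13), the catalytic beta subunit, and again none was higher. Of 18 genes of mitochondrial RNA processing and stability 4 were lower. Of 10 genes of mitochondrial transcription 2 were lower, and of 7 genes of mitochondrial DNA replication 3, the largest being Tfb1m (-1.61 ± 0.33), a methyltransferase of the small ribosomal RNA, and Mgme1 (-1.54 ± 0.28), an exonuclease that trims mitochondrial DNA ends. The share of the mitochondrial ribosomal RNA mt-Rnr2 rose by 1.32 ± 0.38 (adjusted p = 0.0135), from 0.0187% and 0.0279% to between 0.0458% and 0.0691% of counts. Ribosomal RNAs lack long tails, so this share in a poly(A) library does not measure their amount.

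From d8 to d16, 5 members rose, namely 4 of complex I and mt-Cytb. For mt-Nd2 the d16 shares were 0.216% in Basal medium, 0.208% in 2iL, 0.183% with AICAR and 0.218% with AICAR+LIF, all above the highest d8 value. The log2 fold change was 0.82 ± 0.18 (adjusted p = 0.00205). For mt-Nd5, the shares at d8 were 0.134%, 0.145%, 0.190% and 0.220% in the same order of media, and those at d16 were 0.280%, 0.245%, 0.239% and 0.261%. These groups did not overlap either, although AICAR+LIF d8 came close, and the log2 fold change was 0.72 ± 0.16 (adjusted p = 0.00291). For mt-Nd1, the shares were 0.141%, 0.155%, 0.158% and 0.202% at d8 and 0.258%, 0.238%, 0.209% and 0.241% at d16 (log2 fold change 0.67 ± 0.17, adjusted p = 0.00663). Here too each d16 library lay above each d8 library.

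The share of mt-Cytb was 0.208% in 3 d8 libraries (Basal medium, 2iL and AICAR) and 0.247% in AICAR+LIF d8, and it was 0.304%, 0.372%, 0.279% and 0.306% at d16. The groups did not overlap, with a log2 fold change of 0.67 ± 0.18 (adjusted p = 0.00873). For mt-Nd4 the shares were 0.129%, 0.143%, 0.150% and 0.214% at d8 and 0.232%, 0.272%, 0.199% and 0.232% at d16 (0.71 ± 0.19, adjusted p = 0.00912). In this gene AICAR+LIF d8 lay above AICAR d16. As each treatment was sampled on both days, the step was also fitted with the treatment as a block. There the log2 fold change of mt-Nd4 was 0.70 with an adjusted p of 0.0529, and the other 4 remained called.

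The remaining members, mt-Co1, mt-Co2, mt-Co3 and mt-Atp6, had log2 fold changes from 0.46 to 0.57 and adjusted p-values from 0.0525 to 0.102. For mt-Co1 the shares were 0.522%, 0.653%, 0.571% and 0.733% at d8 and 0.968%, 0.959%, 0.597% and 0.695% at d16 in Basal medium, 2iL, AICAR and AICAR+LIF. The d16 libraries with AICAR lay inside the range of d8, and those without AICAR lay above it. A similar order was seen in mt-Co2, with 0.105%, 0.119%, 0.139% and 0.167% at d8 and 0.186%, 0.183%, 0.132% and 0.155% at d16. For mt-Co3 the d16 shares (0.186% to 0.225%) all lay above those at d8 (0.157% to 0.178%), though its adjusted p was 0.0812. For mt-Atp6 they were 0.137% to 0.201% at d8 and 0.190% to 0.232% at d16.

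Thus all 9 members had a positive log2 fold change from d8 to d16, 5 were called higher and 0 lower, and their median was 0.67 where the median of all genes was 0.00. Of all genes 14.6% were higher and 11.7% lower. Within a treatment, the summed share of d16 exceeded that of d8 in 4 of 4 treatments, by 0.82 on the log2 scale in Basal medium, 0.66 in 2iL, 0.25 with AICAR and 0.13 with AICAR+LIF. Of the single members, mt-Co1 (3 of 4 treatments) and mt-Co2 (2 of 4) were the exceptions to a higher share at d16 in 4 of 4. Nuclear-encoded subunits rose as well. In complex I 17 of 36 were higher, in complex III 5 of 9, in complex IV 8 of 12 and in ATP synthase 9 of 17, with 0 lower, and the largest changes in each were those of Ndufv3 (1.16 ± 0.23), Uqcr11 (1.31 ± 0.21), Cox6c (1.11 ± 0.21) and Atp5g1 (0.79 ± 0.17), which encodes the ring subunit c. Genes that transcribe, copy and process mitochondrial nucleic acids did not follow. Of 10 genes of mitochondrial transcription 0 were higher and 1 lower, and this was Tfam (-0.51 ± 0.14), which packs mitochondrial DNA and activates its promoters. Of 7 replication genes 1 was lower (Ssbp1, a single-strand binding protein, -0.71 ± 0.16) and 0 higher, and of 18 genes of mitochondrial RNA processing and stability 1 was higher and 4 were lower.

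Fibroblast transcripts changed along the same step. The summed share of 10 fibroblast markers was 0.00371% in primed Oct4GIP cells and 0.0662% in primed 129/MSM cells, which were kept on feeders. It was 0.327% to 0.408% at d8, and at d16 0.564% in Basal medium, 4.37% in 2iL, 1.65% with AICAR and 1.92% with AICAR+LIF. Of the 10 markers 6 were called higher at d16 than at d8 and 0 lower, and all 10 were detected in every culture. Most of the summed share at d16 lay on the collagen genes Col1a1, Col1a2 and Col3a1 (medians of 6043, 5179 and 4899 CPM). The d16 medians of Postn, Acta2 and Twist2 were below those of d8, and the medians of all other markers were above. Among the d16 libraries, 2iL was the highest both in fibroblast markers and in the 9 mRNAs (2.93%), AICAR+LIF was above AICAR in both, and Basal medium was the lowest in the markers and the second in the 9 mRNAs (2.88%). The nuclear-retained RNAs Malat1 and Neat1 together held 0.0268% to 0.0458% at d8, and at d16 0.0629% in Basal medium, 0.0622% in 2iL, 0.0234% with AICAR and 0.0354% with AICAR+LIF, with neither called. The part of fibroblast transcripts and of RNA composition in the result was not tested.

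**Figure D4:**
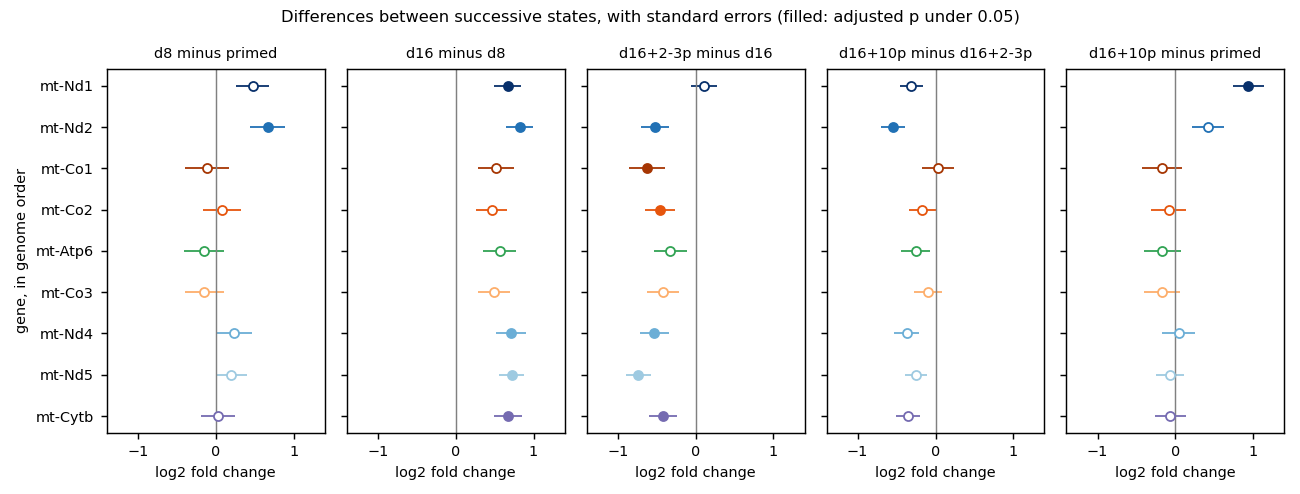
Log2 fold changes with standard errors (x axis) of the 9 members in genome order (y axis) between successive states and, in the last panel, between d16+10p and primed cells, with filled points for an adjusted p under 0.05. All 9 points lie above 0 from d8 to d16, and mt-Nd1 is the only one above 0 from d16 to d16+2-3p, where 6 points are filled below 0.

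The step from d16 cultures to cells expanded for 2 or 3 passages in 2iL was compared to ask what selection and growth in 2iL brought. It used the same d16 libraries as the previous comparison, so that the fold changes of both are not independent. The treatments differed between the groups, as all expanded cells came from AICAR or AICAR+LIF cultures and the d16 group also held Basal medium and 2iL. Of the 9 members 6 fell and 0 rose. With the d16 libraries of AICAR and AICAR+LIF alone, a fit chosen after seeing the data, mt-Nd5 was the only member called (fell by 0.66 ± 0.19, adjusted p = 0.0059, edgeR). In that fit mt-Nd2 had -0.45 ± 0.21 (adjusted p = 0.0726), and the median of the members was -0.26. The largest change was that of mt-Nd5, with shares of 0.170% and 0.144% in AICAR and AICAR+LIF cells after 2 passages and 0.129% and 0.173% after 3, against 0.239% to 0.280% at d16. The groups did not overlap, and mt-Nd5 fell by 0.74 ± 0.16 on the log2 scale (adjusted p = 0.000437). For mt-Nd2 the shares were 0.150%, 0.157%, 0.116% and 0.155% in the same order, below all d16 libraries (fell by 0.52 ± 0.18, adjusted p = 0.0117). For mt-Nd4, 0.165%, 0.154%, 0.142% and 0.189% were also below all d16 libraries (fell by 0.53 ± 0.19, adjusted p = 0.0158).

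In mt-Co1 the shares were 0.452%, 0.459%, 0.554% and 0.641%, of which the last lay inside the range of d16 (fell by 0.62 ± 0.23, adjusted p = 0.0212). The share of mt-Cytb was 0.211%, 0.219%, 0.224% and 0.295%, and AICAR+LIF after 3 passages again overlapped d16 (fell by 0.42 ± 0.18, adjusted p = 0.042). That of mt-Co2 was 0.110%, 0.114%, 0.112% and 0.144% (fell by 0.46 ± 0.20, adjusted p = 0.0443), with the same library inside the d16 range. The members mt-Co3 (-0.42 ± 0.21, adjusted p = 0.076) and mt-Atp6 (-0.33 ± 0.21, adjusted p = 0.17) missed the threshold. The calls at this step moved with single libraries. Without AICAR+LIF of the third passage 8 members were called, and 4 were called without AICAR or AICAR+LIF of the second passage, without Basal d16 or without 2iL d16. Of 16 alternatives mt-Co2 and mt-Cytb each lost the call in 6, mt-Co1 and mt-Nd4 in 2, mt-Nd2 in 1 and mt-Nd5 in 0.

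The exception was mt-Nd1. Its shares of 0.255%, 0.260%, 0.225% and 0.282% overlapped those of d16 (0.209% to 0.258%), and the log2 fold change was 0.11 ± 0.17 (adjusted p = 0.577). Within the 9 mRNAs, mt-Nd1 therefore took 12.3% to 14.4% of the summed count at d16+2-3p, against 8.12% to 9.45% at d16 and 8.38% to 8.68% at d8. The ratio of mt-Nd1 to mt-Co1 counts was 0.405 to 0.567 against 0.248 to 0.351 at d16, with no overlap.

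More genes were called at this step than at any other tested here (33.2% of all genes higher, 37.9% lower), and the median of all genes was -0.15. Against this background, in which most genes changed, 6 of 9 members were lower and 0 higher, with a median of -0.46. Nuclear partners did not fall together. In complex I 7 of 36 were higher and 8 lower, in complex III 4 and 1 of 9, in complex IV 3 and 0 of 12, and in ATP synthase 6 and 0 of 17, with the largest increases in Cox5a (1.48 ± 0.16) and Atp5g1 (1.25 ± 0.16). Of 18 genes of mitochondrial RNA processing and stability 15 were higher and 2 lower, led by Fastkd5 (2.15 ± 0.27), which is needed to release mRNAs that no transfer RNA flanks, and Tbrg4 (2.04 ± 0.30), a stabilizer of several mitochondrial mRNAs. Of 10 genes of mitochondrial transcription 6 were higher and 0 lower, with Tefm (1.62 ± 0.27), an elongation factor of the polymerase, and Tfam (1.32 ± 0.14) the largest. Mgme1 (2.20 ± 0.22) and the helicase gene Twnk (1.24 ± 0.16) led the 3 replication genes that were higher. The fibroblast marker share fell along this step from 0.564% to 4.37% at d16 to 0.000591% to 0.0109%, all 10 markers were called lower and Twist2 was at 0 in all 4 libraries. Malat1 fell by 1.48 ± 0.27 (adjusted p = 7.75e-05), and with Neat1 it held 0.0125% to 0.0232% of counts, below all d16 libraries. The part of both in the fall of the 6 mRNAs was not tested.

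From d16+2-3p to d16+10p, 1 member fell. The share of mt-Nd2 at d16+10p was 0.0695% at the lowest, 0.103% at the median and 0.126% at the highest, overlapping the earlier passages only through AICAR of the third passage (0.116%). It fell by 0.55 ± 0.15 on the log2 scale (adjusted p = 0.0272), and its ratio to mt-Nd1 was 0.422 to 0.588 against 0.515 to 0.602, with overlap. The call was lost when any of 4 single libraries was left out, with Oct4GIP cells alone, and with total counts as library sizes. The other 8 members had log2 fold changes from -0.37 to 0.03, and the median was -0.26 against 0.00 over all genes. Of all genes 4.75% were higher and 4.61% lower, and of the members 1 of 9 was lower and 0 higher (4 at an unadjusted p below 0.05, all lower). Of the nuclear subunits, 1 of 12 genes of complex IV (Cox7c) and 1 of 17 of ATP synthase (Atp5e) were lower and none of complexes I and III was called. Of 18 genes of mitochondrial RNA processing and stability 3 were lower, with Fastkd5 (-0.69 ± 0.22) the largest change, and 1 was higher, Fastk (0.67 ± 0.13). No gene of mitochondrial transcription or replication was called.

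Cells after 10 passages were compared with primed cells to ask how the end of the reversion differs from its start. Of all genes, 16.7% were called higher and 19.9% lower in this comparison. Against this background the members showed no excess of calls. The single change called among them was a rise of mt-Nd1. Its share was 0.0891% in primed Oct4GIP cells and 0.147% in primed 129/MSM cells, and at d16+10p it was 0.165% at the lowest (AICAR+LIF, 129/MSM), 0.199% at the median and 0.262% at the highest (AICAR+LIF, Oct4GIP). All 7 libraries lay above both primed libraries, the naive library lay just below them at 0.162% (exact 95% binomial interval 0.158% to 0.167%), and the log2 fold change was 0.94 ± 0.20 (adjusted p = 0.00109). The call rested on the primed Oct4GIP library. Without it the log2 fold change was 0.63 with an adjusted p of 0.0625, and without the 129/MSM library it was 1.32 with an adjusted p of 0.00067.

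Within the 9 mRNAs, mt-Nd1 took 4.36% of the summed count in primed Oct4GIP cells, 8.88% in primed 129/MSM cells, 8.65% in naive cells and 10.2% to 15.3% at d16+10p. The opposite end of this range was held by mt-Co1, with 39.4% and 31.9% in primed cells and 26.5% to 35.7% at d16+10p. In 129/MSM cells alone its part was not lower, with 31.9% in the primed state and 34.0% and 35.7% at d16+10p. In counts, the ratio of mt-Nd1 to mt-Co1 was 0.111 in Oct4GIP and 0.278 in 129/MSM cells of the primed state, 0.239 in naive cells and 0.288 to 0.510 at d16+10p. The reverted libraries thus lay above the naive library in this ratio as they lay above the primed libraries. Within Oct4GIP the ratio went from 0.111 to between 0.366 and 0.510, and within 129/MSM from 0.278 to 0.301 and 0.288. The difference was thus large in Oct4GIP cells and small in 129/MSM cells, with 1 primed library of each line. The primed libraries also differed in medium, feeders and sex (Oct4GIP XX, 129/MSM XY), which cannot be told apart from the line. With the copies added to the other members, the log2 fold change of mt-Nd1 was again 0.94. As mt-Nd1 has no copy, its own counts were the same in that fit, which could therefore hardly differ.

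The other 8 members had log2 fold changes from -0.17 (mt-Co1) to 0.42 (mt-Nd2) and adjusted p-values of 0.116 or more. The share of mt-Co1 was 0.807% and 0.529% in primed cells, 0.679% in the naive library and 0.362% to 0.752% with a median of 0.572% at d16+10p. That of mt-Co3 was 0.244% and 0.125%, 0.208%, and 0.0999% to 0.202% with a median of 0.158%, and that of mt-Atp6 was 0.206% and 0.150%, 0.207%, and 0.0923% to 0.198% with a median of 0.142%. In these 3 genes primed Oct4GIP cells lay above all reverted libraries and primed 129/MSM cells lay among them. The shares of mt-Co2, mt-Nd4, mt-Nd5 and mt-Cytb at d16+10p (0.0764% to 0.143%, 0.0959% to 0.168%, 0.104% to 0.173% and 0.146% to 0.253%) likewise included at least 1 primed value each. The naive library lay inside the d16+10p range for mt-Co1, mt-Nd4, mt-Nd5 and mt-Cytb, just above it for mt-Co2 (0.146%), mt-Co3 (0.208%) and mt-Atp6 (0.207%), and at its lower end for mt-Nd2 (0.0694%). With 1 naive library, these are positions and not tests. Of 9 members 1 was higher and 0 lower, the background was 16.7% higher and 19.9% lower, and the median was -0.07 for the members and -0.01 for all genes.

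Among the nuclear-encoded genes around the members, 7 of 12 of complex IV were higher, with Cox5a (1.16 ± 0.19) and Cox6c (0.96 ± 0.25) at the top, and in ATP synthase 7 of 17 were higher and 1 lower, with Atp5g1 (1.55 ± 0.20) and Atp5a1 (0.71 ± 0.14) at the top. Complex III had 3 of 9 higher. Complex I had 3 of 36 higher and 1 lower, among them Ndufs1 (0.69 ± 0.15), which carries iron-sulphur clusters. Of 18 genes of mitochondrial RNA processing and stability 8 were higher and 0 lower, led by Grsf1 (1.65 ± 0.24), an RNA-binding protein of mitochondrial RNA granules, and Elac2 (0.91 ± 0.20), which cuts the 3′ ends of transfer RNAs. Tfb2m (0.73 ± 0.23) and Tfam (0.41 ± 0.16) were the 2 higher genes of 10 in mitochondrial transcription. In replication 1 of 7 was higher and 2 were lower, the mitochondrial topoisomerase gene Top1mt (-1.78 ± 0.31) and the primase gene Primpol (-0.81 ± 0.27). The summed share of the 36 nuclear complex I genes was 0.208% and 0.258% in primed cells and 0.225% to 0.240% at d16+10p, and that of the 17 ATP synthase genes was 0.341% and 0.382% against 0.447% to 0.484%.

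The remaining mitochondrially encoded genes were read at lower shares. In the comparison of d16+10p with primed cells mt-Nd3, a small subunit of complex I, rose by 0.78 ± 0.26 (adjusted p = 0.023) and the ribosomal RNA mt-Rnr2 by 1.02 ± 0.35 (adjusted p = 0.0271). From d8 to d16 mt-Nd3 (0.85 ± 0.22, adjusted p = 0.00802) and mt-Nd4l (0.65 ± 0.20, adjusted p = 0.0218) rose, and from d16 to d16+2-3p mt-Nd4l fell by 0.47 ± 0.20 (adjusted p = 0.0389) and mt-Rnr1 by 1.24 ± 0.35 (adjusted p = 0.00366). In the same step mt-Rnr2 had a log2 fold change of 0.02 ± 0.29 (adjusted p = 0.948). The only protein gene of the minus strand, mt-Nd6, held 0.000653% to 0.00217% of counts, passed no test and is known for an mRNA with little or no poly(A) tail. Ribosomal and transfer RNAs also lack long tails, so their shares in a poly(A) library do not measure their amount. Of the 20 transfer RNAs listed, only mt-Tl1 and mt-Tw reached more than 100 counts over all libraries together.

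Across all 22 libraries the members fell into 2 stretches of the genome. As a description, Pearson's r of log2 library shares was 0.87 to 0.93 among the 4 neighbours mt-Co1, mt-Co2, mt-Atp6 and mt-Co3 (6 pairs) and 0.88 to 0.94 among mt-Nd4, mt-Nd5 and mt-Cytb (3 pairs), but 0.51 to 0.82 between both stretches (12 pairs). The 5′ genes mt-Nd1 and mt-Nd2 had an r of 0.65 with each other and differed in their likeness to the 2 stretches. With mt-Co1, mt-Co2, mt-Atp6 and mt-Co3, mt-Nd1 had an r of 0.01 to 0.21 and mt-Nd2 of 0.31 to 0.53. With mt-Nd4, mt-Nd5 and mt-Cytb, mt-Nd1 reached 0.35 to 0.54 and mt-Nd2 0.77 to 0.89. The values of mt-Nd2 thus came close to those inside that stretch, from which it is separated by the mt-Co1 to mt-Co3 stretch. The points share the states, the library totals and, for the mt-Co1 to mt-Co3 stretch and mt-Nd4, the division of reads with their copies, so no p-value is given.

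**Figure D5:**
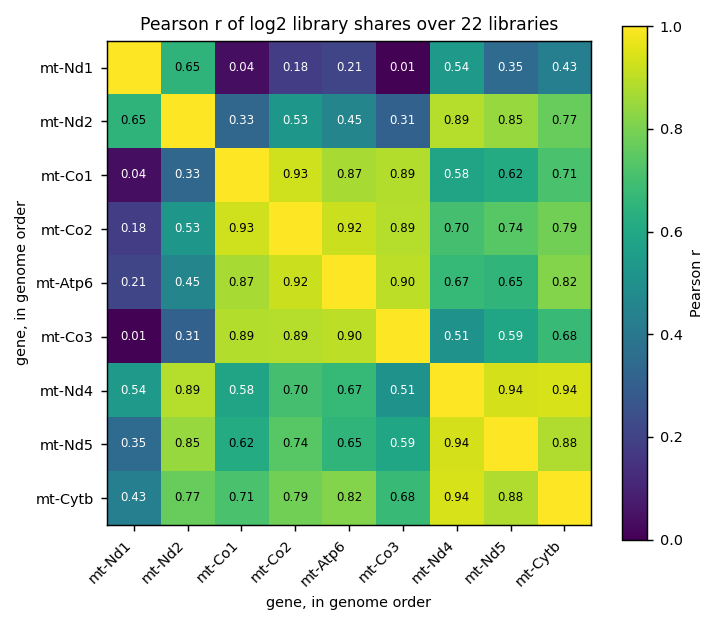
Matrix of Pearson's r between the log2 library shares of the 9 members over 22 libraries, in genome order on both axes and coloured from 0 to 1. The 2 blocks from mt-Co1 to mt-Co3 (0.87 to 0.93) and from mt-Nd4 to mt-Cytb (0.88 to 0.94) stand out, and mt-Nd1 has 0.01 to 0.21 with the first block.

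Of 5116 genes with a mean of at least 50 CPM, the 5 nuclear genes whose log2 share followed the summed share of the 9 members most closely were Gm28661 (r = 0.95), Gm13341 (0.90), Gm10925 (0.90), Gm13340 (0.87) and Gm29216 (0.86). All 5 are nuclear copies of mt-Co1, mt-Co2 or mt-Atp6, and ranks 6 to 8 were copies too. Some of the genes that followed were named after their values were seen. These were C4b (0.78), a complement component, Zfp36l1 (0.77), an mRNA decay factor, Cd81 (0.76), a tetraspanin, and Htra1 (0.75), a secreted protease, and each of these 4 had its highest median at d16. The summed share was itself highest at d16 by median, so this peak follows in part from how the genes were picked.

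The treatments were compared where the design allowed. In the d8 and d16 cultures, AICAR (alone or with LIF) was set against Basal medium and 2iL with the day as a covariate. No member passed the test. Log2 fold changes ranged from -0.30 ± 0.23 (mt-Co1) to 0.19 ± 0.20 (mt-Nd2), with adjusted p-values of 0.416 or more in edgeR, and 0 of 9 had an unadjusted p below 0.05. Of 14026 genes 3.55% were higher and 5.99% lower, and DESeq2 and limma called no member either. For the summed share, the libraries with AICAR lay above those without it at d8 (1.87% and 2.34% against 1.63% and 1.85%) and below them at d16 (2.21% and 2.55% against 2.88% and 2.93%). In the interaction of AICAR with the day, all 9 members had a negative coefficient, from -0.86 ± 0.29 (mt-Co2) to -0.26 ± 0.28 (mt-Co3) on the log2 scale. None passed the test (smallest adjusted p = 0.225, edgeR), 3 members (mt-Co2, mt-Nd2 and mt-Nd5) had an unadjusted p below 0.05, and DESeq2 and limma called none. The test called few genes at all, 0.0927% higher and 0.178% lower. The opposite order on the 2 days was thus not resolved by this test, and the d8 libraries with AICAR were the shallowest ones.

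LIF given together with AICAR was compared with AICAR alone in 4 pairs of expanded cells of the same line and passage. The summed share with LIF was 1.81% against 1.82% after 2 passages, 2.27% against 1.83% after 3, and 1.93% against 1.60% after 10 passages in Oct4GIP cells, but 1.60% against 2.22% in 129/MSM cells. The order was thus opposite in the 2 lines at 10 passages. Log2 fold changes of the 9 members were between 0.00 and 0.10, with SEs of 0.09 to 0.19, and no member was called. Of 12940 genes 0% were called in either direction (edgeR, adjusted p at least 0.9997 for the members), 310 had an unadjusted p below 0.05, and DESeq2 and limma called 0 genes. With SEs of this size, these values do not show that LIF left the members unchanged.

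Between activators at 10 passages each Oct4GIP condition had 1 library, so values are given without a test. The summed share was 1.60% with AICAR, 1.93% with AICAR+LIF, 2.10% with A769662, 1.30% with A769662+LIF and 1.37% with metformin+LIF. The 2 lowest of all 22 libraries were those of A769662+LIF and metformin+LIF, while AICAR+LIF and A769662 alone lay among the higher ones of this state. In mt-Nd1 the 5 shares were 0.193%, 0.262%, 0.253%, 0.199% and 0.179% in the same order, and in mt-Co1 0.522%, 0.596%, 0.691%, 0.390% and 0.362%.

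The 129/MSM line was compared with Oct4GIP over primed cells, AICAR d16+10p and AICAR+LIF d16+10p, with the state as a covariate. The lines also differ in sex and, in the primed state, in medium and feeders, which cannot be told apart from the line. The summed share in 129/MSM was 1.66% against 2.04%, 2.22% against 1.60% and 1.60% against 1.93%, so that 129/MSM was lower in 2 of 3 pairs. In primed cells 5 of 9 members were higher in 129/MSM, against the order of the sum, by 0.72 (mt-Nd1), 0.32 (mt-Nd4), 0.26 (mt-Nd2), 0.04 (mt-Cytb) and 0.01 (mt-Nd5) on the log2 scale, and the other 4 were lower by up to 0.97 (mt-Co3). Log2 fold changes of the members were between -0.29 ± 0.27 (mt-Nd2) and 0.10 ± 0.26 (mt-Nd5), and none passed the test (smallest adjusted p = 0.767, edgeR, and 0 of 9 at an unadjusted p below 0.05). Of 12954 genes 0.0926% were higher and 0.0232% lower in 129/MSM, and DESeq2 and limma called no member.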

How the data were processed

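Poly(A) RNA of 22 mouse cell libraries was made into stranded mRNA libraries and sequenced by the authors as single reads of 79 bases. They mapped the reads with Bowtie2 2.2.5 to the cDNA and ncRNA sequences of Ensembl GRCm38 release 100, dropped alignments with a MAPQ below 1 and deposited raw counts per gene without normalization. Identical reads could thus be counted on either of 2 near-identical genes. The deposited table of transcript counts and the table of detected genes were not used here.

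Library shares were computed on total counts. For differences, edgeR 4.0.16 in R 4.3.3 was used (glmQLFit and glmQLFTest, filterByExpr on the groups, TMM normalization) on all genes, with Benjamini-Hochberg adjustment over all genes and a threshold of 0.05, in a model of 6 states (22 libraries) or in the subsets named, with day, pair or state as a covariate. All 9 members passed the filter. No source says that libraries of a state came from separate cultures of 1 condition, so p-values measure the spread between these libraries. Nuclear copies were found with blastn 2.17.0 (alignments of at least 60 bases) among GENCODE M21 transcripts on GRCm38, from which coordinates and sequences were taken. Transcript models may differ from Ensembl release 100. Correlations used log2 shares with a pseudocount of 0.5 counts.

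Every member and 2 called genes per list (those with the largest size of change) are named. Lists cover mitochondrial transcription, replication and RNA processing, nuclear respiratory subunits and cell markers. The members and the lists were chosen with earlier results of these data known. The alternatives were DESeq2 1.42.0, limma 3.58.1, other library sizes, no filter, other libraries or covariates and 1 library left out at a time. Adding the copies to the members, leaving out both d8 libraries with AICAR and leaving out both d16 libraries without it were chosen after seeing the data. The tests were tried on simulated data. Python 3.11.15 with pandas 2.3.3, numpy 2.4.6, scipy 1.17.1 and matplotlib 3.10.9 was used for the rest.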

Additional observations from a re-analysis of the deposited data

Results flagged for a closer look

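In 6 of 40 groups of 4 or more libraries, a value of a member or of the sum stood apart from the rest by Dixon's criterion (chance flags about 1 in 20 groups). In AICAR+LIF cells of the third passage, mt-Co2 (0.144%), mt-Co3 (0.179%), mt-Cytb (0.295%) and the sum of the 9 members (2.27%) were high for d16+2-3p. These 4 values come from 1 library and are not independent. In AICAR cells of the third passage mt-Nd2 was low (0.116%). In AICAR+LIF d8, the library with the lowest total, mt-Cytb was high (0.247%, where the other 3 libraries had 0.208%).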

How the results depend on the processing

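No called fold change of a member changed sign under any alternative. Medians of the members near 0 did, for d16+10p and d8 against primed cells, for AICAR, for LIF and for 129/MSM. Of the values that answer a comparison, 291 kept their side of the threshold or stayed within the spread and 28 moved. Of the log2 fold changes of single members, 198 kept their call and 33 lost it. The rises of mt-Nd1, mt-Nd2 and mt-Nd5 from d8 to d16 held in all 17 alternatives, and from d16 to d16+2-3p the fall of mt-Nd5 held in all 16 and that of mt-Nd2 in 15. With the d16 libraries of AICAR and AICAR+LIF alone, chosen after seeing the data, 1 member was called at that step. Of d8 against primed cells, DESeq2 called 2 members, and 0 were called without a filter, with only the 2 groups, or without both d8 libraries with AICAR. With only the 2 groups, 3 members were called from d8 to d16, with the treatment as a block 4 (without mt-Nd4), and with no filter 3 from d16 to d16+2-3p. From d16+2-3p to d16+10p 0 were called with total counts as library sizes or with Oct4GIP only. Leaving out 1 library at a time gave 0 to 2 called members for d16+10p against primed cells (0 without primed Oct4GIP, 2 without AICAR+LIF 129/MSM), with a median log2 fold change of -0.15 to 0.17. It gave 0 to 1 for d8 against primed cells (0 without AICAR+LIF d8 or primed Oct4GIP, and mt-Nd1 in place of mt-Nd2 without primed 129/MSM), with medians of -0.03 to 0.20, 5 to 7 from d8 to d16 and 4 to 8 from d16 to d16+2-3p. From d16+2-3p to d16+10p it gave 0 to 1, with 0 without A769662+LIF d16+10p or any of AICAR d16+2p, AICAR+LIF d16+2p and AICAR+LIF d16+3p. The median ranged from -0.34 to 0.095 for 129/MSM against Oct4GIP, from -0.17 to 0.094 for AICAR and from -0.05 to 0.22 for LIF. The count of all genes called for the interaction ranged from 0 (limma) over 38 (edgeR) and 330 (DESeq2) to 1146 (no filter), and for 129/MSM against Oct4GIP from 15 (edgeR) to 213 (DESeq2) and 929 (no filter). For LIF, 0 genes were called by these tools and 68 with no filter. With the 5 copies added, the mean summed share was 2.77% in the naive library, 2.68% in primed cells, 2.74% at d8, 3.71% at d16, 2.70% at d16+2-3p and 2.44% at d16+10p, and the same members were called in each comparison. This setting could hardly change the calls. Nothing was added to mt-Nd1, mt-Nd2, mt-Nd5 and mt-Cytb, and each copy held a similar part of the joint count in all libraries. In the naive library the summed share without copies was 1.92% of counts on nuclear genes and 1.98% with all 13 protein genes. The reads of the copies, single libraries per condition and 438771 counts in the shallowest library limit these results.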

Other observations

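Gfap, an intermediate filament of astrocytes, stood next after the named genes in likeness to the summed share of the 9 members (Pearson's r = 0.72 over 22 libraries, a description). It had 2266 to 11444 CPM at d16 and at most 2.92 in any other library. C4b, which ranked before it, had 120 to 1172 CPM at d16 and at most 1.87 elsewhere, and Htra1 had 155 to 527 at d16 against 23.8 to 103 at d8. The 4 d16 cultures, which had the highest median share of the mitochondrial mRNAs, also held Gfap and C4b transcripts that the other states nearly lacked. As both genes were picked for their likeness to that share, a peak at d16 follows in part from the choice.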
